A study of Homo sapiens with 12 samples.

Results

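The genes described here are 35 that serve protein folding and stress sensing in the endoplasmic reticulum (ER). They were chosen by name, with earlier results of these data known, and taken from every array probe that carries 1 of these symbols. They were sorted by known role into 17 chaperones and folding catalysts, 8 genes of ER-associated degradation, 5 stress sensors and transcription factors, and 5 genes of translocation and early transport. Of the 35, 34 had at least 1 probe, 43 probes in all, and HERPUD1 had none under that symbol. Another 4 genes, PDIA3, SEL1L, DERL3 and ERN1, were not well above background in all arrays of any group. The remaining 30 were tested among 15338 features, and 29 of them were above background on all 12 arrays. DNAJC3 passed the detection filter through ECD alone, where it was above background on 3 arrays, with 1 ICD, 1 Full and 0 Empty arrays.

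Expression was measured 24 h after plasmid transfection of A549, an established non-small cell lung cancer line grown in serum-containing medium. Of the 4 groups, SEMA5A_ICD received the intracellular domain of the transmembrane semaphorin SEMA5A, SEMA5A_ECD its extracellular domain, SEMA5A_Full the full-length protein, and Empty a control plasmid. They are called ICD, ECD, Full and Empty, each had 3 single-colour bead arrays, and every group shared the cell line, the transfection reagent and the hour of harvest. The labels number the arrays as replicates without naming separate transfections, so the p-values rest on array-to-array spread that may be only technical, and 3 arrays a group limit the precision.

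The ER folds and modifies proteins that enter the secretory pathway. When unfolded proteins accumulate, the membrane sensors IRE1 (encoded by ERN1), PERK (EIF2AK3) and ATF6 start the unfolded protein response. IRE1 splices the XBP1 message into the form that encodes an active transcription factor, ATF6 is cut in the Golgi to release another, and PERK phosphorylates eIF2-alpha, which slows translation and favours ATF4 and then DDIT3 (CHOP). ATF6 and spliced XBP1 raise ER chaperones such as HSPA5 (BiP) and genes that clear misfolded proteins through ER-associated degradation. Arrays of this kind read the total XBP1 message and cannot show splicing, cleavage or phosphorylation.

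The sequences through which ATF6 and XBP1 act are shown for 4 members on which the comparisons below turn: the textbook target HSPA5, the sensor target XBP1, the chaperone HYOU1 with more than 1 kind of motif, and PPIB, which was lowest with ICD and ECD. Each is the 250 bases before the annotated start, read 5′ to 3′ on the gene's strand from RefSeq promoters of build GRCh38.p14, and all 4 genes lie on the minus strand. They cover chr9:125241344-125241593 for HSPA5, chr22:28800570-28800819 for the XBP1 window that holds a match among its 2, chr11:119057206-119057455 for HYOU1 and chr15:64163023-64163272 for PPIB, all upstream of the transcribed gene. Capitals mark matches to 3 motifs searched on both strands, the ER stress response element (ERSE, CCAAT then 9 free bases then CCACG), ERSE-II (ATTGG then 1 free base then CCACG) and the unfolded protein response element (UPRE, TGACGTGG).
HSPA5: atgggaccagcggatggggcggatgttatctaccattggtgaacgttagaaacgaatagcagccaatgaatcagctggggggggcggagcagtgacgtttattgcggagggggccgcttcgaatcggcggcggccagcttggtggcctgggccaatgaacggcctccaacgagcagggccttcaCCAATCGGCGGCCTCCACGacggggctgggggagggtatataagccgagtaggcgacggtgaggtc
XBP1: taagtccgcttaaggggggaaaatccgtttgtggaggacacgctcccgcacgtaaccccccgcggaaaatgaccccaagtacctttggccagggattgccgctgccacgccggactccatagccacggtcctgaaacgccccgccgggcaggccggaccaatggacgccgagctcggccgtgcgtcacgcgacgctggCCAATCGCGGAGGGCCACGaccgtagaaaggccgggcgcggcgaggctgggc
HYOU1: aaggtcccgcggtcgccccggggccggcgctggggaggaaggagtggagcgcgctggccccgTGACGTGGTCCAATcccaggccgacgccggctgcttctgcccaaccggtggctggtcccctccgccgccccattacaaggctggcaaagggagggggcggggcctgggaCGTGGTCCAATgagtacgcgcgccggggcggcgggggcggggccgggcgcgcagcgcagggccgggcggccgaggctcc
PPIB: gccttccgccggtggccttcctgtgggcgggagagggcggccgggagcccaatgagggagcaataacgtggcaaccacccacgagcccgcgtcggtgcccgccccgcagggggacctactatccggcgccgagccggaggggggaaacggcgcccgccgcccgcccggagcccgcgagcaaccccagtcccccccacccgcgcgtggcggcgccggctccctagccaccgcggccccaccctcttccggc
HSPA5 and XBP1 hold 1 exact ERSE match each, and PPIB holds 0 matches. HYOU1 holds 2 ERSE-II matches on its opposite strand, the first of them overlapping its UPRE. In windows of 250 bases before to 50 after the start, ERSE stood in 7 of 32 members with a window (CALR, CANX, CRELD2, HSP90B1, HSPA5, PDIA6 and XBP1), against 0.0769% of all 35116 windows. ERSE-II stood in HERPUD1, HYOU1 and SDF2L1, against 0.0541% of windows, and the UPRE in HYOU1 and TXNDC5, against 0.729%. The member counts are of genes, which have 40 windows among the 32, and the percentages are of single windows, so the units differ. Members and motifs were both picked for their known part in ER folding and stress, so this contrast is not a test. Only exact matches were counted, and they describe letters in a window and not sites in use. Near matches were not searched for, so a gene without a match is not shown to lack the element.

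Across the whole series, each array had 18659 to 20366 of its 47323 probes above background (detection p under 0.05). Full replicate 3 stood apart on the second principal component (15.5% of the variance), at 22.0 against 11.8 and -0.37 for the other Full arrays. Some of the results that rest on it, but not all, are given without it too. The ECD arrays were the brightest, with a 95th percentile of intensity 9.80 to 10.1 times the level of undetected probes, against 8.54 to 9.55 times on the other arrays. The 2 probes for SEMA5A were above background on 0 arrays of each group, so the plasmids could not be checked on these arrays. Of 8 epithelial and A549 markers, KRT8 and KRT18 were above background on all 12 arrays, ALDH1A1 on up to 11, EPCAM on up to 2, and KRT19, CDH1, AKR1B10 and AKR1C1 on 0. Of the markers of other cells, 0 of 4 leukocyte and 0 of 5 fibroblast and endothelial genes with a probe were above background on all 12 arrays. CD14 was above background on up to 5, COL1A1 and DCN on up to 4, and COL1A2 on up to 2. PTPRC and LYZ were on up to 1, and CD3E, PECAM1 and VWF on 0. In whole-culture RNA, fewer transfected cells and less RNA per cell cannot be told apart.

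Most of the 30 tested genes stayed close to their level with Empty. With ICD, ATF6 and TXNDC5 were called higher and PPIB and ERGIC2 lower, with ECD XBP1 and SSR1 were called higher and PPIB lower, and with Full 0 of 30 were called in either direction. A gene was called when its adjusted p in limma, corrected over all features, was under 0.05. The 4 genes called with ICD are 13.3% of those tested, beside 6.01% of all features (3.33% higher and 2.68% lower). The 3 called with ECD are 10% of those tested, beside 11.4% of all features (6.04% higher and 5.37% lower). With Full, 1.08% of all features were called (0.808% higher and 0.267% lower). The shares called lie near the background with ECD and Full, and counts of 4 and 3 are small. The genes were chosen with earlier results of these data known, so no share of them, that with ICD included, tests them against all features. An unadjusted limma p under 0.05 was reached by 10 of the 30 genes with ICD, 6 with ECD and 3 with Full. All features were not counted at that threshold, so these counts have no background.

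The genes' changes were mostly small, and with quantile normalization their medians lay near 0, like those of all features. The median log2 difference over the 30 was -0.05 with ICD, 0.02 with ECD and 0.01 with Full, beside 0.01, -0.01 and 0.01 over all features. With median scaling the ECD median was 0.16 over the 30, beside 0.11 over all features. With ICD 21 of 30 lay within 1.2-fold of Empty, with ECD 24 and with Full 27, where all features gave 78.8%, 73.7% and 85.7%. The upper limit of the 95% interval stayed under 2-fold higher for all 30 tested genes in each of these 3 comparisons. It stayed under 1.5-fold higher for 28 with ICD, 27 with ECD and 29 with Full. These upper limits bound rises only. For falls, the lower limit in the ICD comparison was -1.24 on the log2 scale for ERGIC2 and -1.09 for PPIB, both beyond 2-fold lower. Genes whose whole interval lay inside 1.5-fold in both directions numbered 25 for ICD, 25 for ECD and 28 for Full.

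**Figure D1:**
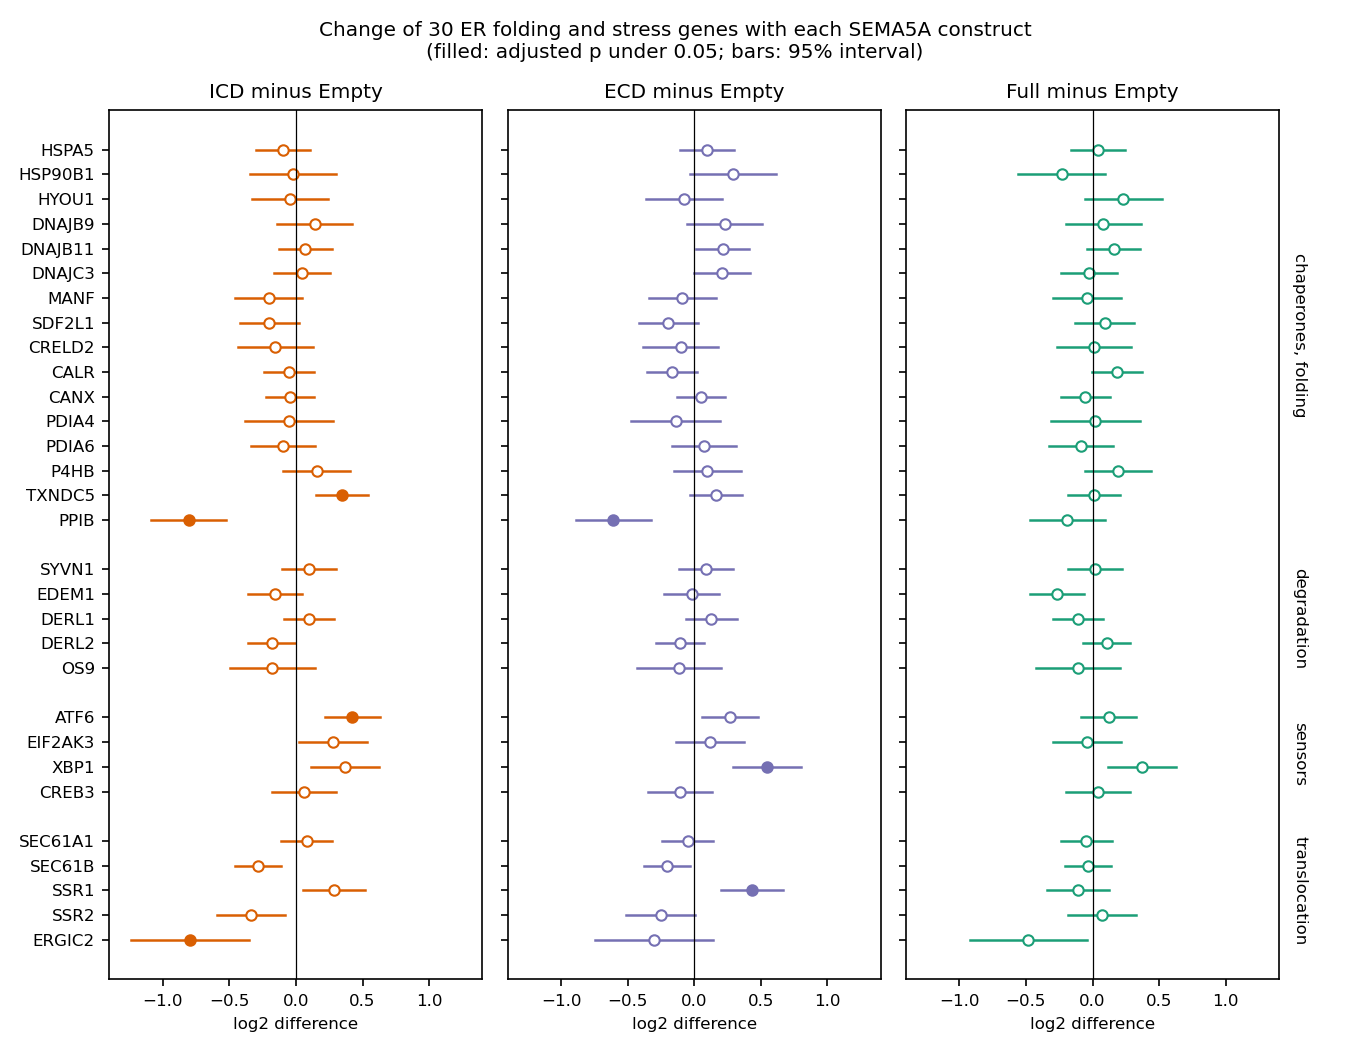
Log2 difference from Empty (horizontal axis) of the 30 tested genes, in rows by role, with ICD, ECD and Full in panels from left to right; points are differences of the means of 3 arrays, bars the 95% interval in limma, and filled points have an adjusted p under 0.05. PPIB stands at -0.81 with ICD and -0.61 with ECD, XBP1 at 0.55 with ECD, and no point is filled with Full.

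Among the stress sensors, ATF6 was called higher with ICD and XBP1 with ECD, and no sensor was called with Full. ATF6 is the sensor that is cut in the Golgi to release a transcription factor. Its normalized log2 intensities were 8.05, 7.90 and 7.77 with ICD and 7.65, 7.79 and 7.80 with ECD. They were 7.65, 7.62 and 7.54 with Full, against 7.54, 7.37 and 7.53 with Empty. All ICD and all ECD arrays lay above all Empty arrays, and the Full arrays overlapped them. ATF6 rose 1.34-fold with ICD (log2 0.42 ± 0.10, SE, n = 3 arrays a group; limma adjusted p = 0.022). Its difference was 0.27 with ECD (adjusted p = 0.089) and 0.12 with Full (adjusted p = 0.6). Leaving out 1 array at a time, the ICD call held in 2 of 6 fits and was lost without ICD replicates 1 or 2 and Empty replicates 2 or 3, with adjusted p of 0.026 to 0.097.

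XBP1, the message spliced by IRE1 and itself a target of ATF6, had log2 intensities of 9.08, 8.88 and 8.95 with ICD, 8.93, 9.36 and 9.15 with ECD, and 9.00, 8.82 and 9.09 with Full, against 8.70, 8.66 and 8.45 with Empty. On the probe used here, every array with a construct was above every Empty array. XBP1 rose 1.46-fold with ECD (log2 0.55 ± 0.12; limma adjusted p = 0.012). It differed by 0.37 with ICD (adjusted p = 0.082) and by 0.37 with Full (adjusted p = 0.17), which were not called. A second XBP1 probe gave 0.42 ± 0.09 with ECD, 0.21 ± 0.09 with ICD and 0.34 ± 0.09 with Full, in a separate fit over all probes. On that probe ICD replicate 2 lay just below Empty replicate 3 (8.725 against 8.726). The ECD call held in 4 of 6 fits with 1 array left out and was lost without ECD replicate 2 or Empty replicate 3 (adjusted p of 0.0093 to 0.062).

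The other sensors did not pass the test. EIF2AK3, the kinase PERK, had 5.16, 5.42 and 5.32 with ICD, 4.94, 5.27 and 5.19 with ECD, and 5.05, 5.09 and 4.79 with Full, against 5.17, 4.90 and 4.99 with Empty. Each construct group overlapped Empty, and the differences were 0.28 ± 0.12 with ICD (limma adjusted p = 0.17), 0.12 with ECD and -0.04 with Full. CREB3, a membrane-bound transcription factor related to ATF6, differed by 0.06 with ICD, -0.11 with ECD and 0.04 with Full. ERN1, the sensor IRE1, was not well above background except on 1 ICD array, where its detection p was 0.00519.

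The luminal chaperones that define a full response were not called against Empty with any construct. HSPA5, the Hsp70 of the ER lumen, had log2 intensities of 6.96, 6.93 and 7.01 with ICD, 7.21, 7.06 and 7.22 with ECD, and 7.19, 6.96 and 7.17 with Full, against 7.17, 7.00 and 7.02 with Empty. The groups overlapped Empty throughout. Its difference was -0.10 with ICD (95% interval -0.30 to 0.10), 0.10 with ECD (-0.10 to 0.30) and 0.04 with Full (-0.16 to 0.24), and limma adjusted p was 0.57, 0.54 and 0.88. Its probe read at 194.6 to 247.7 intensity units, and the offset of the background correction shrinks the changes of such dim probes.

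HSP90B1, the Hsp90 of the ER known as GRP94, read 10.89, 11.08 and 10.65 with ICD, 11.36, 10.99 and 11.22 with ECD, and 10.92, 10.77 and 10.30 with Full, against 10.86, 10.87 and 10.95 with Empty. All ECD arrays were above all Empty arrays, yet the difference of 0.29 ± 0.15 was not called (limma adjusted p = 0.22). CALR, the lectin chaperone calreticulin, read 9.33, 9.10 and 9.30 with ICD, 9.16, 9.11 and 9.12 with ECD, and 9.46, 9.48 and 9.50 with Full, against 9.29, 9.25 and 9.34 with Empty. The Full arrays were all above and the ECD arrays all below Empty, by 0.18 (adjusted p = 0.34) and -0.17 (adjusted p = 0.23). Neither difference was called.

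The DnaJ co-chaperones, which hand clients to HSPA5, were not called. With ECD, DNAJB9, a sensitive target of XBP1, differed by 0.23 and DNAJB11 by 0.21, with limma adjusted p of 0.28 and 0.15. DNAJC3, an inhibitor of PERK, differed by 0.21 with ECD (adjusted p = 0.18), and it was tested only because it was above background on all ECD arrays. SDF2L1, a partner of these co-chaperones, differed by -0.20 with ICD, -0.20 with ECD and 0.09 with Full. All its ICD and ECD arrays, 9.23 to 9.36, lay below its Empty arrays at 9.44 to 9.54, and neither difference was called (adjusted p = 0.26 and 0.23). MANF and CRELD2, secreted ER stress proteins, differed by -0.20 and -0.15 with ICD, -0.09 and -0.10 with ECD, and -0.04 and 0.01 with Full.

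HYOU1, a large ER relative of Hsp70, and the membrane lectin CANX each had a second probe that read differently. The HYOU1 probe used here differed by 0.23 ± 0.13 with Full (limma adjusted p = 0.44). Its second, dimmer probe differed by 0.52 ± 0.11 in the separate fit over all probes. With ECD these probes gave -0.08 and 0.23, and with ICD -0.05 and -0.03. The CANX probe used here differed by -0.04 with ICD, 0.05 with ECD and -0.05 with Full, and its second probe gave 0.21 with ICD, 0.29 with ECD and -0.19 with Full. Of the disulfide isomerases, PDIA4, PDIA6 and P4HB differed by -0.14 to 0.19 over the 3 constructs and were not called.

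The folding catalysts TXNDC5 and PPIB moved apart with ICD. TXNDC5, a protein disulfide isomerase with several thioredoxin domains, read 10.49, 10.42 and 10.59 with ICD, 10.38, 10.28 and 10.30 with ECD, and 10.22, 10.05 and 10.23 with Full, against 10.23, 10.13 and 10.11 with Empty. The ICD arrays were all above the Empty arrays and above the other constructs. TXNDC5 rose 1.27-fold with ICD (log2 0.35 ± 0.09; limma adjusted p = 0.038), and differed by 0.17 with ECD (adjusted p = 0.25) and 0.01 with Full (adjusted p = 0.97). A second probe, at 99.8 to 120.1 intensity units, gave -0.15 ± 0.12 with ICD, and the mean of both probes was not called (0.10, adjusted p = 0.52). The ICD call was also lost in all 6 fits with 1 array left out (adjusted p of 0.056 to 0.13) and with median scaling (adjusted p = 0.074).

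PPIB, the ER prolyl isomerase cyclophilin B that acts on collagen and other clients, had the lowest change of the 30 genes with ICD and with ECD. It read 8.10, 7.53 and 7.83 with ICD, 7.87, 8.08 and 8.12 with ECD, and 8.35, 8.35 and 8.62 with Full, against 8.60, 8.61 and 8.68 with Empty. All ICD and ECD arrays were below all Empty arrays, and Full replicate 3 lay within the Empty range. PPIB fell 1.75-fold with ICD (log2 -0.81 ± 0.13; limma adjusted p = 0.0036) and 1.52-fold with ECD (log2 -0.61 ± 0.13; adjusted p = 0.011). With Full it differed by -0.19 (adjusted p = 0.53). The ICD call held in all 6 fits with 1 array left out, and the ECD call in 4, being lost without ECD replicate 1 or Empty replicate 3 (adjusted p of 0.026 to 0.054).

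**Figure D2:**
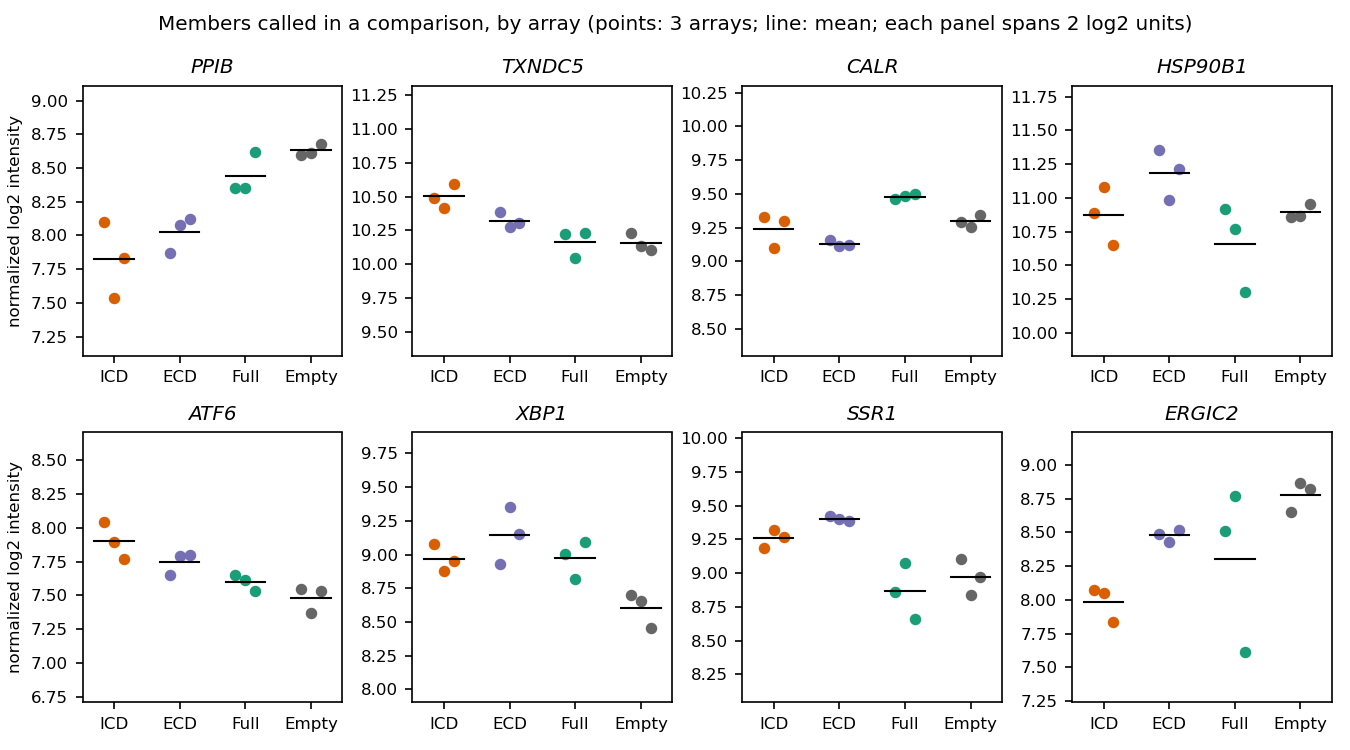
Normalized log2 intensity (vertical axis, each panel spanning 2 log2 units) of the 8 members called in at least 1 comparison, by array, with ICD, ECD, Full and Empty from left to right; points are the 3 arrays of a group and lines their mean. PPIB lies at 7.53 to 8.12 with ICD and ECD and at 8.60 to 8.68 with Empty, and the Full arrays of ERGIC2 run between 7.61 and 8.77.

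Of the 5 genes of ER-associated degradation that could be tested, 0 were called against Empty, a count too small to read against the 6.01%, 11.4% and 1.08% of all features called with ICD, ECD and Full. The differences ran from -0.18 for DERL2 to 0.10 for DERL1 with ICD, from -0.11 for OS9 to 0.13 for DERL1 with ECD, and from -0.27 for EDEM1 to 0.11 for DERL2 with Full. EDEM1, which marks misfolded glycoproteins by trimming mannose, read 5.94, 5.94 and 5.98 with Full, against 6.27, 6.32 and 6.06 with Empty. All its Full arrays were below all Empty arrays, and the difference was not called (limma adjusted p = 0.22). SYVN1, the ubiquitin ligase HRD1, stayed within 0.10 of Empty with each construct, and a dim second probe gave -0.32 with ECD. DERL1 and DERL2, channel proteins of the same machinery, had differences of opposite sign with each construct, none of them called, and a second DERL2 probe gave 0.25, 0.30 and -0.03 with ICD, ECD and Full.

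In translocation and transport, SSR1 rose with ECD and ERGIC2 fell with ICD. SSR1, a subunit of the translocon-associated protein complex, read 9.19, 9.32 and 9.27 with ICD, 9.42, 9.40 and 9.39 with ECD, and 8.86, 9.07 and 8.66 with Full, against 9.11, 8.84 and 8.97 with Empty. All ICD and ECD arrays were above all Empty arrays, and the Full arrays overlapped them. SSR1 rose 1.35-fold with ECD (log2 0.43 ± 0.11; limma adjusted p = 0.022) and differed by 0.29 with ICD (adjusted p = 0.13) and -0.11 with Full (adjusted p = 0.7). The ECD call held in 1 of 6 fits with 1 array left out, the fit without Empty replicate 1 (adjusted p of 0.027 to 0.089).

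SSR2, another subunit of the same complex, gave differences of the other sign, -0.34 with ICD (limma adjusted p = 0.11) and -0.25 with ECD (adjusted p = 0.18), and a second probe gave -0.20 and -0.33. SEC61B, a subunit of the translocation channel, read 11.40, 11.28 and 11.34 with ICD, 11.47, 11.37 and 11.43 with ECD, and 11.60, 11.58 and 11.59 with Full, against 11.64, 11.60 and 11.63 with Empty. It had the smallest spread of the 30 genes (SD 0.042 within groups), and all ICD and ECD arrays were below all Empty arrays. Its difference with ICD, -0.29, lay at the threshold and was not called (adjusted p = 0.05). SEC61B was called lower with ICD under most alternatives. These were no background correction, an offset of 50, no or a stricter detection filter, the mean of probes, array weights and a variance trend. It was not called with median scaling, a replicate block or any array left out. SEC61A1, the channel's main subunit, stayed within 0.08 of Empty with each construct.

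ERGIC2, a cargo-cycling protein between ER and Golgi, read 8.07, 8.05 and 7.84 with ICD, 8.49, 8.43 and 8.52 with ECD, and 8.51, 8.77 and 7.61 with Full, against 8.65, 8.87 and 8.82 with Empty. The ICD and ECD arrays were all below the Empty arrays, and Full replicate 3 was the lowest of the 12. ERGIC2 fell 1.73-fold with ICD (log2 -0.79 ± 0.21; limma adjusted p = 0.037), and differed by -0.30 with ECD (adjusted p = 0.37) and -0.48 with Full (adjusted p = 0.3). Its spread within groups was the largest of the 30 genes (SD 0.317). The ICD call was lost in all 6 fits with 1 array left out (adjusted p of 0.066 to 0.11), with median scaling (adjusted p = 0.063) and without the detection filter (adjusted p = 0.092). Without Full replicate 3 the difference with Full was -0.14.

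Of the 9 tested genes whose start region holds an ERSE or ERSE-II, like HSPA5 and HYOU1 above, 0 were called with ICD, 1 with ECD (XBP1) and 0 with Full. All features had 6.01%, 11.4% and 1.08% called in these comparisons, so counts of this size over 9 genes do not set them apart. The 9 genes were at a median log2 difference of -0.05, 0.05 and 0.04. The other 21 had 4 called with ICD, 2 with ECD and 0 with Full, with medians of 0.06, -0.02 and -0.03. Among the 9, differences ran from -0.20 (SDF2L1) to 0.37 (XBP1) with ICD and from -0.20 (SDF2L1) to 0.55 (XBP1) with ECD. PPIB, with 0 matches, and TXNDC5, with a UPRE, were the folding catalysts called with ICD.

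**Figure D3:**
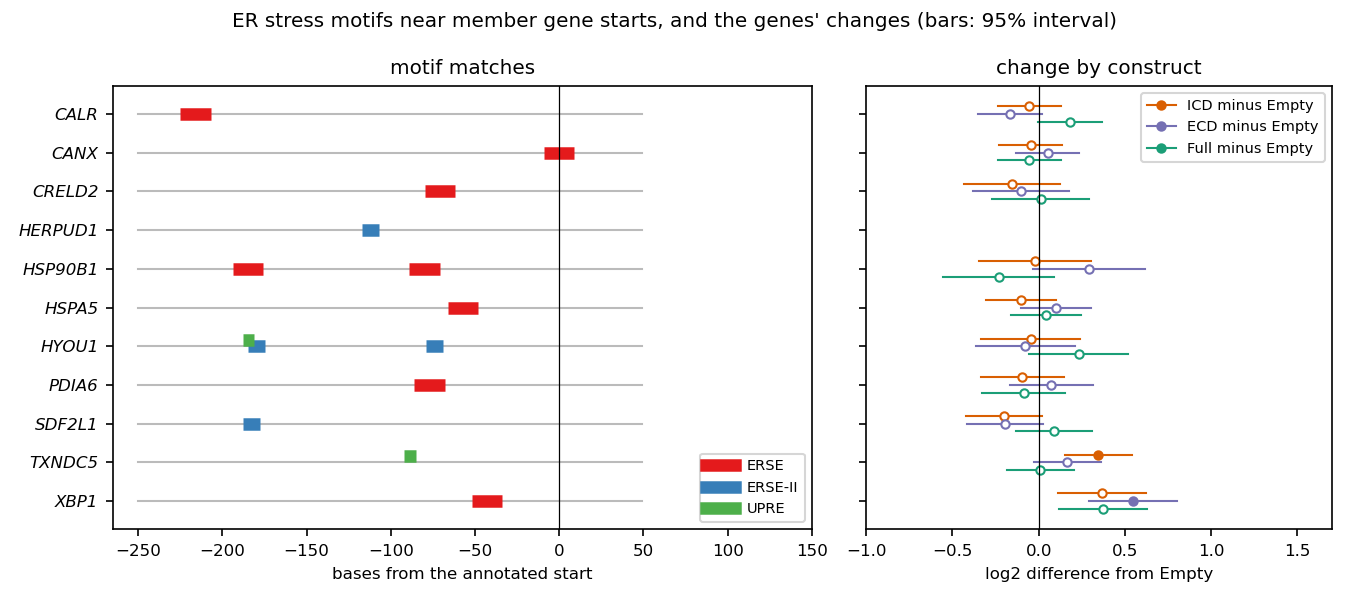
Left, positions of ERSE, ERSE-II and UPRE matches in bases from the annotated start for the 11 members with a match, 1 window a gene; right, each gene's log2 difference from Empty with ICD, ECD and Full (points, filled where adjusted p was under 0.05) and its 95% interval (bars). HERPUD1 has a match and no probe, and of the genes with an ERSE or ERSE-II only XBP1 with ECD is filled.

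Between constructs, 4 of the 30 genes were called in Full against ECD, 2 in Full against ICD and 0 in ECD against ICD. In Full against ECD, CALR and PPIB were called higher and HSP90B1 and SSR1 lower, 13.3% of those tested beside 18.3% of all features (8.08% higher and 10.2% lower). CALR was 1.27-fold higher (log2 0.35 ± 0.09; limma adjusted p = 0.014), with all Full arrays above all ECD arrays. PPIB was 1.34-fold higher (log2 0.42 ± 0.13; adjusted p = 0.04). HSP90B1 was 1.44-fold lower (log2 -0.53 ± 0.15; adjusted p = 0.028) and SSR1 1.45-fold lower (log2 -0.54 ± 0.11; adjusted p = 0.006), each with all arrays of Full below all of ECD. Without Full replicate 3, CALR and SSR1 were the members called. SSR1 was called in all 6 fits with 1 array left out, CALR in 5 (not without ECD replicate 2), HSP90B1 in 3 (not without ECD replicate 1 or 3 or Full replicate 3) and PPIB in 1 (without Full replicate 2).

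In Full against ICD, PPIB was 1.53-fold higher (log2 0.62 ± 0.13; limma adjusted p = 0.021) and TXNDC5 1.26-fold lower (log2 -0.34 ± 0.09; adjusted p = 0.048). These are 6.67% of the genes tested, beside 5% of all features (2.01% higher and 2.99% lower). The PPIB call was lost without ICD replicate 2 or Full replicate 3 (adjusted p up to 0.075) and the TXNDC5 call in all 6 such fits, and without Full replicate 3 ERGIC2 was the member called higher. In ECD against ICD 0 of 30 were called in limma, beside 1.71% of all features called (1.11% higher and 0.6% lower). An unadjusted limma p under 0.05 was reached by 1 of the 30, a threshold at which all features were not counted. The differences there ran from -0.18 for TXNDC5 to 0.49 for ERGIC2, and 28 of 30 lay within 1.2-fold.

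How the arrays were scaled bears on the ECD results. When arrays were scaled by their medians instead of by quantiles, the median of all features moved to 0.11 with ECD, and 2132 features were called higher and 166 lower with ECD, beside 927 and 823 with quantile normalization. Relative to that median, XBP1 was at 0.60, SSR1 at 0.48, ATF6 at 0.35, HSPA5 at 0.19 and PPIB at -0.52. ATF6 was then called with ECD as well (limma adjusted p = 0.011). With quantile normalization it was also called without background correction (adjusted p = 0.045) and with array weights (adjusted p = 0.033). HSPA5, at 0.30 before that median is taken off, was not called with median scaling (adjusted p = 0.061, against 0.10 and adjusted p = 0.54 with quantile normalization). In Full against ECD, median scaling gave 258 features higher and 2898 lower, beside 1239 and 1563. The median over the 30 genes was then -0.19, beside -0.10 over all features. It left CALR and PPIB uncalled (adjusted p = 0.17 and 0.29) and SSR1 and HSP90B1 called lower.

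Other genes of the pathway were counted in 5 lists that held 127 genes, 114 of them tested. With ICD 6 were called higher and 5 lower (9.65%, beside 6.01% of all features), with ECD 8 and 4 (10.5%, beside 11.4%), and with Full 2 and 0 (1.75%, beside 1.08%). In these lists only DDIT3, PPP1R15A and ATF4 were followed through the other settings and with arrays left out. Whether the calls of the other genes hold there was not checked. With ECD and Full the largest changes in limma were in genes of the eIF2-alpha branch, downstream of PERK and of kinases outside the ER. DDIT3, the pro-apoptotic transcription factor CHOP, read 6.13, 6.40 and 6.39 with ICD, 7.40, 7.50 and 7.31 with ECD, and 7.06, 7.39 and 7.21 with Full, against 6.52, 6.22 and 6.63 with Empty. The ECD and Full arrays were all above the Empty arrays, and the ICD arrays overlapped them. DDIT3 differed by 0.95 ± 0.12 with ECD (adjusted p = 0.00027), 0.77 ± 0.12 with Full (adjusted p = 0.0049) and -0.15 ± 0.12 with ICD (adjusted p = 0.52). The difference between ECD and ICD was itself called (1.09 ± 0.12; adjusted p = 8.6e-05), as was that between Full and ICD (0.91 ± 0.12; adjusted p = 0.0025).

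PPP1R15A (GADD34), the phosphatase subunit that reverses eIF2-alpha phosphorylation, read 8.44, 8.56 and 8.58 with ICD, 9.05, 8.86 and 8.97 with ECD, and 8.76, 8.64 and 8.89 with Full, against 8.11, 8.07 and 8.10 with Empty. All arrays with a construct were above all Empty arrays. It was higher by 0.43 ± 0.09 with ICD (limma adjusted p = 0.016), 0.86 ± 0.09 with ECD (adjusted p = 3.3e-05) and 0.67 ± 0.09 with Full (adjusted p = 0.0012). The ICD call held in 2 of 6 fits with 1 array left out, being lost without ICD replicate 2 or 3 and Empty replicate 2 or 3 (adjusted p of 0.032 to 0.063), and the calls with ECD and Full held in all 6. ATF4, the transcription factor upstream of both, differed by 0.32 ± 0.10 with ECD (adjusted p = 0.046), 0.25 with ICD (adjusted p = 0.13) and 0.05 with Full (adjusted p = 0.85). The ECD call was lost in all 6 fits with 1 array left out, with median scaling (adjusted p = 0.054) and without the detection filter (adjusted p = 0.057), and the mean of its probes differed by -0.03. The ATF4 targets TRIB3 and CHAC1 differed by 0.21 and -0.01 with ICD, 0.24 and 0.20 with ECD, and 0.29 and 0.28 with Full, and were not called. BAX, an effector of apoptosis, fell by 0.51 on the log2 scale with ECD (adjusted p = 0.026).

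**Figure D4:**
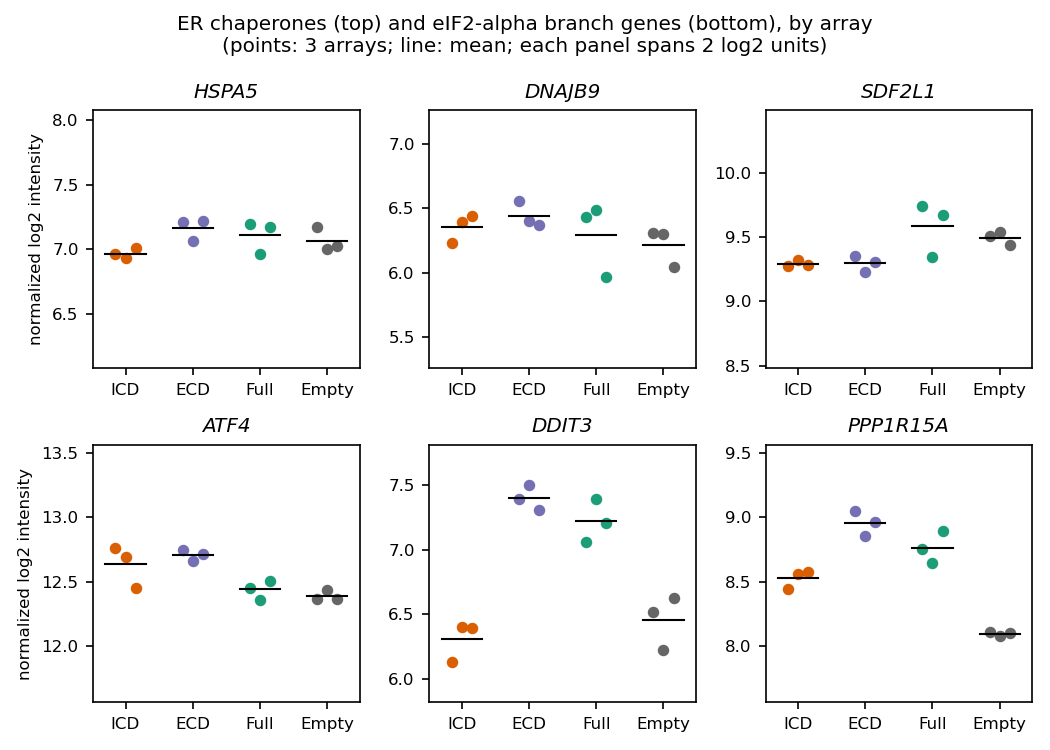
Normalized log2 intensity (vertical axis, each panel spanning 2 log2 units) by array for the chaperones HSPA5, DNAJB9 and SDF2L1 (top) and the eIF2-alpha branch genes ATF4, DDIT3 and PPP1R15A (bottom), with ICD, ECD, Full and Empty from left to right; points are arrays and lines means of 3. HSPA5 runs from 6.93 to 7.22 over all 12 arrays, while DDIT3 lies at 7.06 to 7.50 with ECD and Full and at 6.22 to 6.63 with Empty.

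Among other folding genes, FKBP2, a prolyl isomerase of the ER lumen like PPIB, was lower with both domain constructs. It read 7.43, 7.51 and 7.47 with ICD, 7.12, 7.26 and 7.32 with ECD, and 7.65, 7.71 and 7.88 with Full, against 7.87, 7.87 and 7.94 with Empty. All ICD and ECD arrays were below all Empty arrays, by -0.43 ± 0.09 (limma adjusted p = 0.017) and -0.66 ± 0.09 (adjusted p = 0.00043). UGGT2, a homologue of the glucosyltransferase that checks glycoprotein folding, rose by 0.57 with ECD (adjusted p = 0.019). In degradation, FAF2, which recruits the ATPase VCP to the ER, rose by 0.41 with ICD (adjusted p = 0.0093) and 0.31 with ECD (adjusted p = 0.024), and the ubiquitin-conjugating enzyme UBE2J2 fell by 0.61 with ECD (adjusted p = 0.02).

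In translocation, subunits of 1 machine were called in opposite directions, as the SSR subunits had been in sign. These calls were not followed through other settings or with arrays left out. SRP14 and SRP72, both of the signal recognition particle, differed by -0.54 and 0.40 with ICD (limma adjusted p = 0.0082 and 0.047) and by -0.44 and 0.44 with ECD (adjusted p = 0.014 and 0.022). RPN1 and MAGT1, of the oligosaccharyltransferase, rose by 0.40 and 0.39 with ICD (adjusted p = 0.02 and 0.03). In early transport, the p24 cargo receptors TMED2 and TMED10 differed by 0.52 and -0.52 with ICD (adjusted p = 0.016 and 0.0076). The lectin LMAN2 and the membrane protein ERGIC3 fell by 0.49 and 0.41 with ICD, and with ECD the coat proteins COPB1 and SEC24B rose by 0.55 and 0.43. In Full against ECD, 7 of the 114 were called higher and 17 lower (21.1%, beside 18.3% of all features), with the oxidase ERO1A at -0.68 and COPB1 at -0.68 the lowest and FKBP2 at 0.52 the highest.

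**Figure D5:**
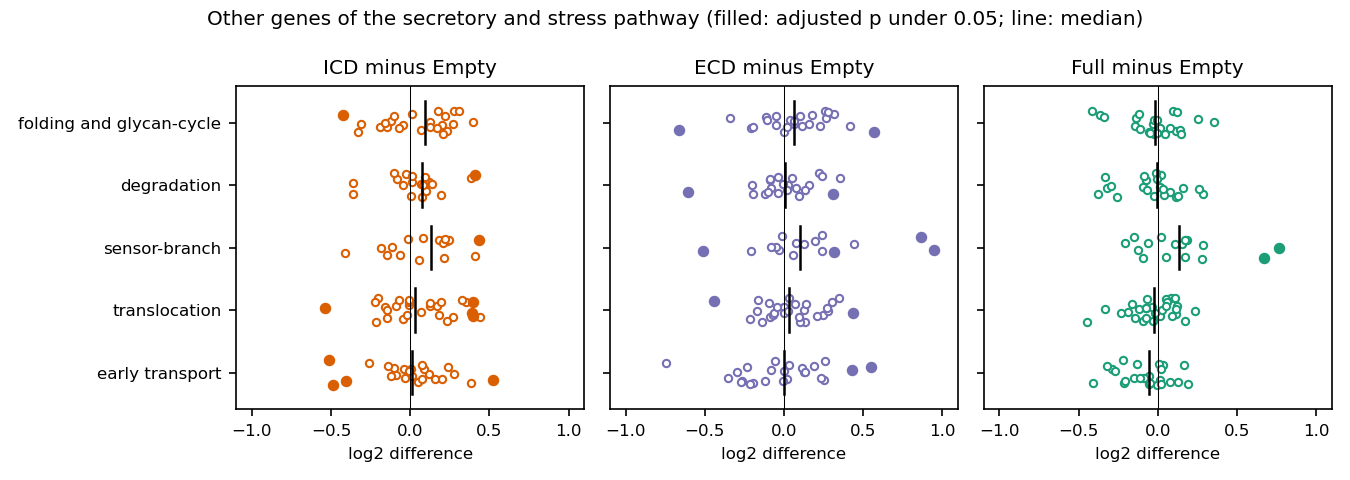
Log2 difference from Empty (horizontal axis) of the 114 other pathway genes tested, in rows by list, with ICD, ECD and Full in panels from left to right; points are genes, filled where the limma adjusted p was under 0.05, and vertical lines are medians. DDIT3 at 0.95 and PPP1R15A at 0.86 lie farthest right with ECD, and with Full these 2 genes are the filled points.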

How the data were processed

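Total RNA of 12 A549 samples was amplified, biotin-labelled and hybridized to Illumina bead arrays, per the labels' protocols. The deposited table gives linear intensities and detection p-values against negative controls, as the values show. The bead summary is not given in the sources used here. Also deposited by the authors were log2 values that equal quantile-normalized log2 intensities within 5e-09. Probes were named from the platform annotation (30113 with 1 symbol, 8 with several, 17202 with none), and 30074 were matched by Entrez identifier to RefSeq genes of GRCh38.p14, which changed 0 symbols.

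The neqc function of limma 3.58.1 (R 4.3.3) corrected intensities by normexp with an offset of 16, then applied quantile normalization and log2. A probe entered if 1 or more groups had it at detection p under 0.05 in all 3 arrays (18728 probes), and the brightest probe stood for a gene, giving 15338 features. The 6 comparisons were two-sided contrasts in 1 eBayes fit over 12 arrays, with residual degrees of freedom of 8 and prior ones of 6.50, with Benjamini-Hochberg adjustment. Values of second probes came from a separate fit of the same contrasts over all 47323 probes, so their SEs are not from the main fit. The steps were tested on simulated data. Values per array were given for every member called against Empty, ATF6, EIF2AK3, XBP1 and HSPA5, and for further genes chosen after their values were seen (HSP90B1, CALR, EDEM1, SEC61B, DDIT3, PPP1R15A and FKBP2). Named in the other lists were up to 3 called genes a direction with the smallest adjusted p, with TRIB3 and CHAC1 added afterwards.

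The members, lists and promoter motifs were chosen with earlier results of these data known. The labels do not say whether arrays of the same replicate number are pairs, and they were not treated as pairs. Of the arrays, 0 pairs were identical, and every column was used. Alternatives covered background correction, offset, scaling, filter, probe choice, fitted groups, array weights, variance model, a replicate block and each array left out. Figures used matplotlib under Python.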

Additional observations from a re-analysis of the deposited data

How the results depend on the processing

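Member calls below are counts of the 30 genes, higher and lower, set beside those in the report. The report's counts were 2 and 2 with ICD, 2 and 1 with ECD, 0 and 0 with Full, 0 and 0 for ECD against ICD, 2 and 2 for Full against ECD and 1 and 1 for Full against ICD. Without background correction they were 3 and 4 with ICD, 4 and 2 with ECD, 6 and 3 for Full against ECD and 6 and 3 for Full against ICD. With an offset of 50 they were 3 and 4 with ICD, 4 and 3 for Full against ECD and 5 and 3 for Full against ICD. With median scaling they were 1 and 1 with ICD, 3 and 1 with ECD, 0 and 6 for Full against ECD and 1 and 0 for Full against ICD. Without a detection filter they were 2 and 2 with ICD (SEC61B in place of ERGIC2), 1 and 1 for Full against ECD and 2 and 0 for Full against ICD. With detection p under 0.01 they were 2 and 3 with ICD and 3 and 2 for Full against ICD. With the mean of probes they were 1 and 3 with ICD, 3 and 3 for Full against ECD and 2 and 1 for Full against ICD, and ATF4 with ECD reversed to -0.0286. Array weights gave 2 and 3 with ICD, 3 and 1 with ECD, 3 and 4 for Full against ECD and 3 and 2 for Full against ICD. A variance trend gave 3 and 4 with ICD, 2 and 2 with ECD, 4 and 2 for Full against ECD and 3 and 2 for Full against ICD. With only the groups compared in the fit, ECD had 3 lower, ECD against ICD 1 higher, Full against ECD 1 lower and Full against ICD 0 and 0. Counts not given for a setting equal the report's. The causes of these moves were not tested.

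Leaving out each array gave 0 to 1 higher and 1 to 1 lower with ICD, 0 to 2 and 0 to 1 with ECD, 0 and 0 with Full and for ECD against ICD, 0 to 4 and 1 to 2 for Full against ECD and 0 to 3 and 0 to 1 for Full against ICD. PPIB with ICD was called in all 6 of these fits and under all 10 other alternatives. Same-numbered arrays correlated in their deviations at -0.09 to 0.12 over 18 pairs, 1 of them over 0.1, and 6 of 12 arrays correlated best with their own number, so the numbers were not taken as pairs. With a replicate block, Full against ICD had 0 lower (TXNDC5 at adjusted p = 0.051), ATF4, not among the 30, was not called with ECD (adjusted p = 0.057), and the other member counts were as in the report.

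Features called over the 10 alternatives ran from 324 to 896 higher and 167 to 727 lower with ICD, 693 to 2132 and 166 to 1577 with ECD, 69 to 362 and 7 to 333 with Full, 158 to 280 and 20 to 162 for ECD against ICD, 258 to 2037 and 1017 to 2898 for Full against ECD, and 27 to 667 and 14 to 932 for Full against ICD. A block for chip or scan was not run, as the files and labels name neither. Signal close to background limits DNAJC3, PDIA4, EIF2AK3, CREB3 and OS9 most, since their probes read under 150 intensity units.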
